A study of Homo sapiens with 6 samples.

Results

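Keratin transcripts were followed in AsPC-1 cells, a widely used line grown from a human pancreatic adenocarcinoma, as 10 genes taken by symbol from the 26228 rows of the deposited table: KRT7, KRT8, KRT18, KRT19, KRT20, KRT17, KRT6A, KRT23, KRT80 and KRT81. RNA was measured in 6 libraries, of which 3 came from vehicle-treated cells and 3 from cells exposed to DON (6-diazo-5-oxo-L-norleucine), which resembles glutamine and inactivates enzymes that use it. Both groups were kept without serum for the 24 h of treatment, so absence of serum is common to all libraries. The dose of DON is not given in the sources used here, and all libraries come from 1 cell line. The comparison addresses how transcript levels respond to this block of glutamine use. Nothing in the labels says whether the replicates were separate cultures, and a p-value here therefore reflects only library-to-library spread, which may be technical.

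Keratins are the intermediate filament proteins of epithelia. Each filament is built from pairs of 1 acidic type I and 1 basic type II keratin, so that a cell needs partners of both types. KRT8 and KRT18 are the standard pair of simple, single-layered epithelia such as pancreatic ducts, with KRT7 and KRT19 typical of ductal cells and KRT20 of gut epithelium. KRT6A and KRT17 belong to stratified, basal or wounded epithelia. KRT23 is a type I keratin known to be inducible in gut and pancreatic cancer cells, KRT80 is a type II keratin of several epithelia, and KRT81 is a type II hair keratin. The last 3 were placed in neither class.

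The labelled cell type was checked against marker genes. EPCAM, an adhesion protein of simple epithelia, stood at 928 to 1201 FPKM (FPKM counts fragments relative to transcript length and to the library's mapped total) in the 6 libraries, and the epithelial cadherin CDH1 at 29.2 to 36.8 FPKM. Defining markers of several other cell types were low, set against a floor of 0.01 FPKM, the lowest value the table holds. VIM, the filament gene of mesenchymal cells, was an exception at 1014 to 1347 FPKM, and so were LUM of the fibroblast list and LYZ of the leukocyte list, whose values are given with those lists. The leukocyte gene PTPRC reached at most 0.258, the fibroblast gene COL1A1 0.0766, the endothelial gene PECAM1 0.112 and the acinar gene PRSS1 0.110 FPKM. The basal epithelial genes KRT5, KRT14 and TP63 reached at most 0.0258, 0.204 and 0.238 FPKM.

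Each library's FPKM values summed to between 525200 and 556950, with 11292 to 11474 genes at 1 FPKM or more. Absolute depth is unknown, because read counts are not in the table. Steps between low values of the same gene put the other libraries at 1.25 to 1.70 times the depth of vehicle 1. Only 46 to 71 of the 671 to 768 genes compared per library stood at the commonest ratio, so these depths are rough. Principal component 1 (61.6% of variance) separated the groups. Along component 2 (19.7%) vehicle 3, DON 2 and DON 3 had scores above 0 and the other libraries below 0, with no wider gap between the sides than within them. This split at 0, called the library split, matters for keratins, because KRT8 and KRT18 have no value, only a mark of failure, in exactly the 3 libraries on that side. Of 41 genes with any failure mark, KRT8 and KRT18 were the only 2 with that pattern. They were also the only marked genes among the 96 that reached 1000 FPKM.

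The relation among the members is visible at the start of their central rod, at the helix initiation motif that opens the coiled coil. The 36 coding bases there were read from GENCODE 29 (GRCh38), in the transcript with the longest coding sequence of each gene. They are shown for 3 type I keratins, to set simple-epithelial KRT18 and KRT19 beside KRT17 of stratified epithelium. Capitals mark the 23 of 36 bases shared by all 5 type I members (KRT18, KRT19, KRT17, KRT23 and KRT20).
KRT18 (type I, chr12:52949432-52949467, plus strand, exon 1): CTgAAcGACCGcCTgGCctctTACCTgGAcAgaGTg
KRT19 (type I, chr17:41527954-41527989, minus strand, exon 1): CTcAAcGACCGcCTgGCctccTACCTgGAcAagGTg
KRT17 (type I, chr17:41624204-41624239, minus strand, exon 1): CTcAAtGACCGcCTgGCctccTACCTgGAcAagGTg
In this stretch KRT19 matched KRT17, of the other class, at 35 of the 36 bases and KRT18, of its own class, at 32. Except for KRT18, all type I members lie on chromosome 17, and KRT18 lies beside the type II members on chromosome 12.

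Simple-epithelial keratins made up nearly all keratin RNA, and the levels of the 10 members spanned from over 1000 FPKM to the floor of the table. In vehicle 1 and vehicle 2 the 10 members summed to 9057 and 9183 FPKM, which is 1.66% and 1.68% of all summed FPKM. In DON 1, the one DON library with a value for every member, they summed to 6057 FPKM, or 1.09%. FPKM is scaled to transcript length, so levels can be set side by side. The vehicle order was KRT18, KRT8, KRT19, KRT23, KRT7, KRT80, KRT20, KRT81, KRT17 and KRT6A. Ranges over libraries overlapped for the neighbours KRT20 and KRT81 and for KRT81 and KRT17, so these did not differ beyond their spread. In DON, KRT19 stood above KRT8, and KRT17 came before KRT20 and KRT81. There the ranges of KRT23 and KRT7 overlapped, as did those of KRT20 with KRT17 and with KRT81. The DON places of KRT18 and KRT8 rest on 1 library.

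**Figure D1:**
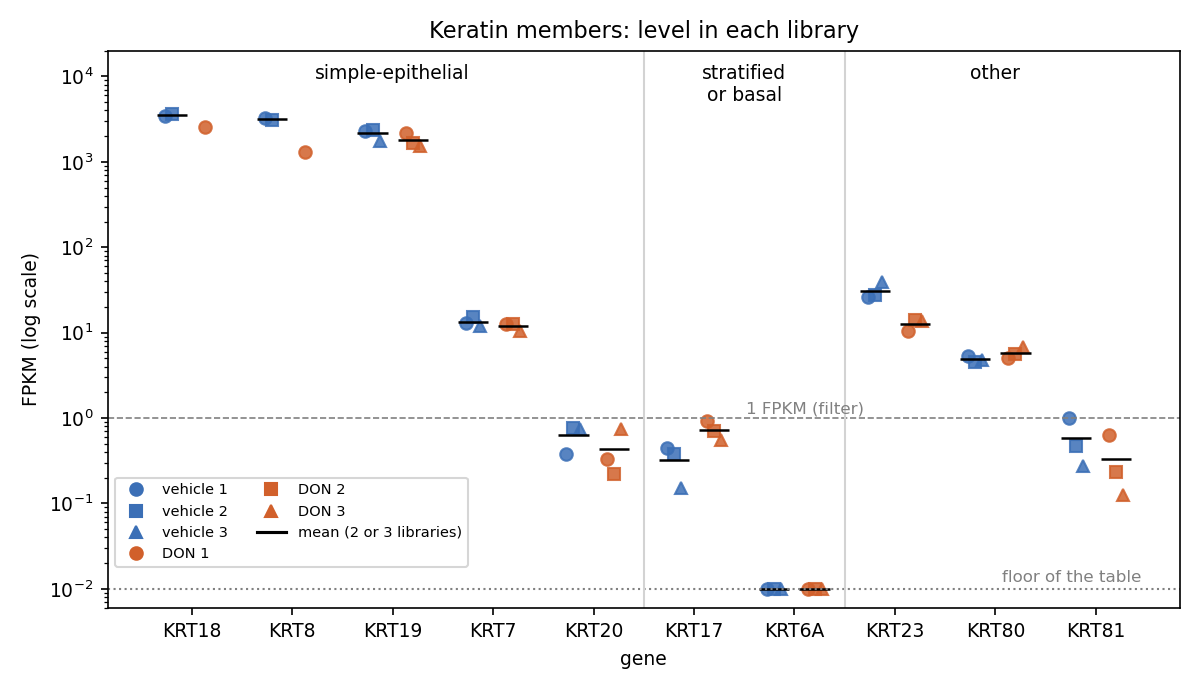
FPKM of the 10 keratin members on a log axis, with 1 point per library (blue vehicle, orange DON, shapes for replicate numbers) and bars at the mean of 2 or 3 libraries. KRT18, KRT8 and KRT19 sit above 1000 FPKM wherever they have a value, KRT6A lies on the floor of 0.01 FPKM in all 6 libraries, and KRT23 is the member whose DON points lie below its vehicle points in all 6 libraries.

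Of the 10 members, 4 (KRT7, KRT19, KRT23 and KRT80) entered the fit across all genes, 4 stayed under the filter of 1 FPKM in at least 3 libraries, and 2 (KRT8 and KRT18) had fewer than 2 values in the DON group. Limma called 1 of the 4 tested members lower in DON and 0 higher, at an adjusted p under 0.05. Over all 11495 tested genes 38.9% were called, 20.6% as lower and 18.3% as higher. The median log2 fold change was -0.21 over the 4 tested members and -0.01 over all tested genes. With 4 genes, this count shows nothing particular to keratins. At an unadjusted p under 0.05 the same 1 member passed. Fewer cells of a type and less RNA per cell cannot be told apart in such bulk samples.

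KRT8, the type II partner of the simple-epithelial pair, stood at 3238 FPKM in vehicle 1, 3087 FPKM in vehicle 2 and 1294 FPKM in DON 1. The single DON value lay below both vehicle values, at 0.409 of their mean. KRT8 ranked 11th and 12th of all genes in these vehicle libraries and 52nd in DON 1. KRT18, the type I partner, stood at 3454 FPKM in vehicle 1, 3669 FPKM in vehicle 2 and 2531 FPKM in DON 1, or 0.711 of the vehicle mean. It ranked 8th in both vehicle libraries and 13th in DON 1. Both genes were thus lower in the 1 DON library that can be read, KRT8 by more. The ratio of KRT8 to KRT18 was 0.938 and 0.841 in vehicle 1 and vehicle 2 and 0.511 in DON 1.

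With 1 DON value neither gene has a test in the design used here. The log2 difference between the DON value and the vehicle mean was -1.29 for KRT8 and -0.49 for KRT18, given as descriptions. The 3 libraries with values lie on 1 side of the library split, so a value from the other side, vehicle 3 against DON 2 and DON 3, cannot be given. No library gave a failed value for KRT8 without failing for KRT18.

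How far the values of this pair can be kept apart depends on the counting, which is not given in the sources used here. Of the 1613 stretches of 75 bases (the read length) in the KRT8 transcript, 20.0% also occur in another gene of GENCODE 29, all of them in KRT8 pseudogenes, of which 12 hold at least 1 such stretch. For KRT18, 25.5% of 1488 stretches occur in another gene. Of those, 293 lie in other annotated KRT8 transcripts, which overlap KRT18 on the opposite strand. Without use of strand, reads from these 293 stretches fit both genes. The sequence below shows such a stretch of KRT18, in capitals because every base is shared.
KRT18, shared with KRT8 on the opposite strand (chr12:52949362-52949436 in GRCh38, plus strand, coding part of exon 1): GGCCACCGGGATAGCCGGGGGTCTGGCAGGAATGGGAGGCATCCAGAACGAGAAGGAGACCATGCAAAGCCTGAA
The deposited table lists KRT8P41 and KRT18P55 among 8 keratin pseudogene rows, and none of the 8 passed 0.537 FPKM. The pseudogenes that share most stretches with KRT8 and KRT18, KRT8P3 and KRT18P11, have no row, so reads that fit them cannot be followed. The part of shared reads in the KRT8 and KRT18 values was not tested.

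KRT19, the shortest keratin and a partner of KRT7 and KRT8 in ductal cells, stood at 2319, 2377 and 1750.4 FPKM in vehicle 1 to 3. It stood at 2202, 1648 and 1527 FPKM in DON 1 to 3. The groups overlapped, with DON 1 above vehicle 3. Means were 2149 ± 346 and 1793 ± 360 FPKM (SD, n = 3 per group). The log2 fold change was -0.27 (95% interval -0.69 to 0.16, limma adjusted p = 0.28), so a fall of up to that lower bound is not excluded by these libraries. The 3 libraries on the first side of the library split all stood above the 3 on the second. On the first side DON stood at 0.938 of vehicle, and on the second at 0.907. None of the 75-base stretches of KRT19 occur in another gene of the annotation.

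KRT7, the type II keratin of ducts, stood at 12.9, 15.4 and 12.1 FPKM in vehicle 1 to 3. In DON 1 to 3 it stood at 12.8, 12.7 and 10.6 FPKM. Both groups covered much the same range, and the log2 fold change was -0.15 (95% interval -0.44 to 0.14, limma adjusted p = 0.363). KRT19 stood 130 to 180 times as high as KRT7 in each library. Of the 75-base stretches of KRT7, 9.05% lie on the opposite strand in the antisense gene KRT7-AS.

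KRT20, the intestinal type I keratin, was under the filter, at 0.381, 0.774 and 0.753 FPKM in vehicle and 0.335, 0.220 and 0.743 FPKM in DON. Its groups overlapped. No simple-epithelial member that could be tested was therefore called, while the 2 most abundant ones could not be tested.

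The stratified or basal members were nearly absent in both groups. KRT6A, a type II keratin of wounded and hyperproliferative epidermis, stood at the floor in all 6 libraries. Of its 75-base stretches 26.2% occur in other keratin genes, mostly KRT6C and KRT6B, so reads could be lost to these copies. KRT6C stood at the floor throughout and KRT6B reached at most 0.0385 FPKM. KRT17, a type I keratin of basal and wounded epithelium, stood at 0.445, 0.379 and 0.153 FPKM in vehicle 1 to 3. In DON 1 to 3 it stood at 0.924, 0.699 and 0.552 FPKM. Every DON library lay above every vehicle library, and the mean was 2.22 times as high (0.725 ± 0.187 against 0.326 ± 0.153 FPKM, SD, n = 3 per group). An exact two-sided permutation test gave p = 0.1, the smallest that 3 against 3 libraries allow. Groups that do not overlap must give this value, so it adds nothing to their separation.

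KRT17 was not in the main fit because of its low level. Without a filter its log2 difference was 0.38 (limma adjusted p = 0.16). Of the 6427 genes under the filter but above the floor somewhere, 13.1% had groups that do not overlap, 5.43% with DON higher. The difference of KRT17 was 0.45 and 0.49 on the log2(FPKM + 1) scale on the first and second side of the library split. Groups that do not overlap must give the same direction on both sides, so only the sizes are informative. Of its 75-base stretches 4.19% occur in KRT17 pseudogenes.

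Set against each other, the classes differed by orders of magnitude in summed level, through KRT18, KRT8 and KRT19. Not every gene followed its class. KRT20 of the simple class, at 0.220 to 0.774 FPKM, lay within the range of KRT17 (0.153 to 0.924 FPKM). Over the 8 members with a value in all 6 libraries, stratified or basal keratins made up 0.0193%, 0.0161% and 0.00902% of the keratin FPKM in vehicle 1 to 3. In DON 1 to 3 they made up 0.0418%, 0.0421% and 0.0361%. The share was higher in every DON library. Its stratified part rests on KRT17 alone, since KRT6A stood at the floor. Its base is mostly KRT19 (1527 to 2377 FPKM), whose mean in DON was 0.834 of vehicle. The share falls to 0.00464% (vehicle 1 and 2) and 0.0154% (DON 1) with KRT8 and KRT18 in the sum. Since the members were chosen with results known, the share carries no test.

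Stratified keratins outside the 10 members were more abundant than KRT17. The table held 45 other keratin genes, of which 28 stood at the floor in all libraries, 14 reached at most 0.210 FPKM, and 3 (KRT10, KRT15 and KRT16) passed the filter. KRT10, the type I keratin of suprabasal epidermis, stood at 10.3, 9.67 and 15.9 FPKM in vehicle 1 to 3. In DON 1 to 3 it stood at 18.5, 26.3 and 26.5 FPKM. The groups did not overlap, and KRT10 rose 1.99-fold (log2 fold change 0.95 ± 0.21 SE, limma adjusted p = 0.0127). Among tested genes with 6 values, 51.5% had groups that do not overlap. The call of KRT10 was lost without DON 2 (limma adjusted p = 0.0519) and without a filter on low values (0.0920). Within the library split the rise was 1.85-fold on the first side and 1.66-fold on the second. Its direction there was fixed by the groups not overlapping, its size was not. The KRT10 gene model overlaps TMEM99 on the opposite strand in GENCODE 29, and none of the 75-base stretches of the KRT10 transcript occur in another gene.

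KRT15, a type I keratin of basal cells, stood at 10.1 to 14.1 FPKM in vehicle and 11.8 to 14.9 FPKM in DON (limma adjusted p = 0.494). KRT16, the wound-induced partner of KRT6A, stood at 2.38 to 3.12 and 1.93 to 2.74 FPKM (limma adjusted p = 0.388), and 9.68% of its 75-base stretches occur in other genes, chiefly a KRT16 pseudogene and KRT14. For both genes the groups overlapped. All stratified keratin genes of the table were then counted, a choice made after seeing the data. Their share was taken of simple plus stratified keratin FPKM without KRT8 and KRT18. KRT23, KRT80 and KRT81, in neither class, were left out. This share was 1.16%, 1.00% and 1.61% in vehicle 1 to 3. It was 1.67%, 2.42% and 2.61% in DON 1 to 3. The groups stayed apart, but vehicle 3 and DON 1 nearly met. Most of the stratified FPKM added in DON was KRT10.

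**Figure D2:**
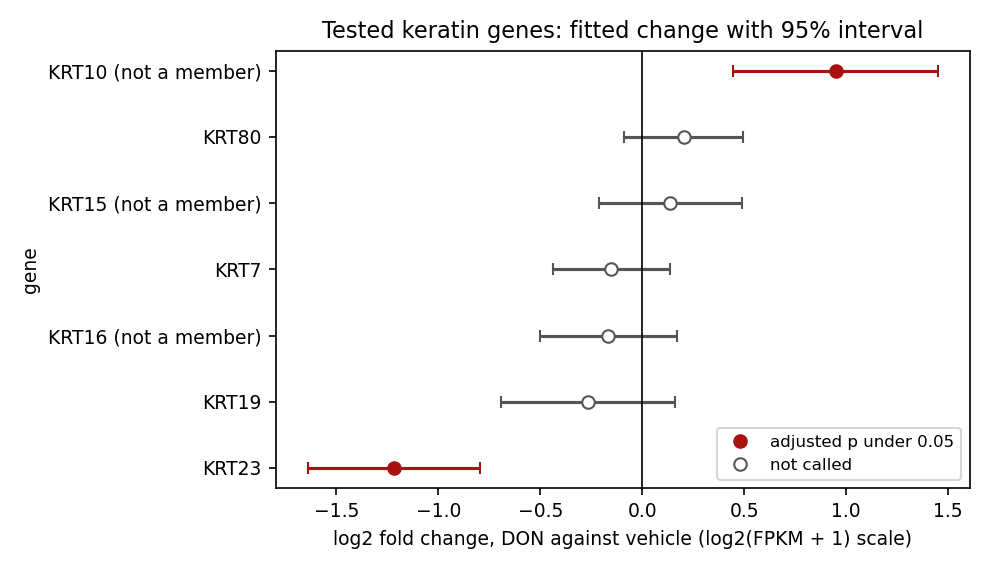
Fitted log2 fold change of DON against vehicle (points) with its 95% interval (bars) for the 7 keratin genes that passed the filter, filled where limma called the gene. KRT23 lies at -1.22 and KRT10 at 0.95, and the intervals of the other 5 genes include 0.

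KRT23, an inducible type I keratin, was the 1 member called among the 4 that could be tested. It stood at 26.0, 27.9 and 39.2 FPKM in vehicle 1 to 3. In DON 1 to 3 it stood at 10.4, 13.9 and 13.6 FPKM. Every DON library lay below every vehicle library, and vehicle 3 stood above the other vehicle libraries. KRT23 fell 2.45-fold, from 31.0 ± 7.16 to 12.7 ± 1.93 FPKM (log2 fold change -1.22 ± 0.18 SE, 95% interval -1.64 to -0.79, limma adjusted p = 0.00236). An exact permutation test of this gene alone gave the smallest possible p of 0.1, a value fixed once the groups do not overlap.

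Within the library split the fall of KRT23 was 2.58-fold for DON 1 against vehicle 1 and 2, and 2.85-fold for DON 2 and 3 against vehicle 3. Since KRT23 had groups that do not overlap, its direction on each side was fixed and only the sizes are informative. Its call held under every alternative run, with log2 fold changes from -1.37 to -1.04 and limma adjusted p up to 0.028. Relative to KRT19, KRT23 stood at 11.2, 11.7 and 22.4 FPKM per 1000 FPKM of KRT19 in vehicle 1 to 3 and at 4.74, 8.46 and 8.90 in DON 1 to 3. The ratio was lower in every DON library than in any vehicle library, which repeats the separation of KRT23 alone. Groups did not overlap for 51.5% of tested genes with 6 values. The difference between the changes of KRT23 and KRT19 was not tested. Of the 75-base stretches of KRT23, 2.40% lie on the opposite strand in an antisense gene. The sequence below is one of these and is shown because it is the part of KRT23 whose reads depend on the use of strand.
KRT23, shared with an antisense gene (chr17:40928276-40928350 in GRCh38, minus strand, coding part of exon 6): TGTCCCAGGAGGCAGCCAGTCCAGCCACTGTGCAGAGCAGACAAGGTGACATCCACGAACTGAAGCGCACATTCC

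KRT80, a type II keratin found near desmosomes in differentiating epithelia, stood at 5.38, 4.54 and 4.77 FPKM in vehicle 1 to 3. In DON 1 to 3 it stood at 5.05, 5.66 and 6.74 FPKM. The groups overlapped through vehicle 1 and DON 1 (log2 fold change 0.20, 95% interval -0.09 to 0.50, limma adjusted p = 0.228). KRT81, a type II hair keratin, stood at 0.994, 0.469 and 0.277 FPKM in vehicle and 0.628, 0.236 and 0.127 FPKM in DON. It was under the filter, and its groups overlapped. Of its 75-base stretches 36.6% occur in other genes, chiefly the neighbouring hair keratin KRT86, which itself stayed at or below 0.111 FPKM. One such stretch is shown.
KRT81, shared with KRT86 in the same orientation (chr12:52291118-52291192 in GRCh38, minus strand, coding part of exon 1): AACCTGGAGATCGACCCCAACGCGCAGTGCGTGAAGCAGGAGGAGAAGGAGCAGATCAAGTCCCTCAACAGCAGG

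**Figure D3:**
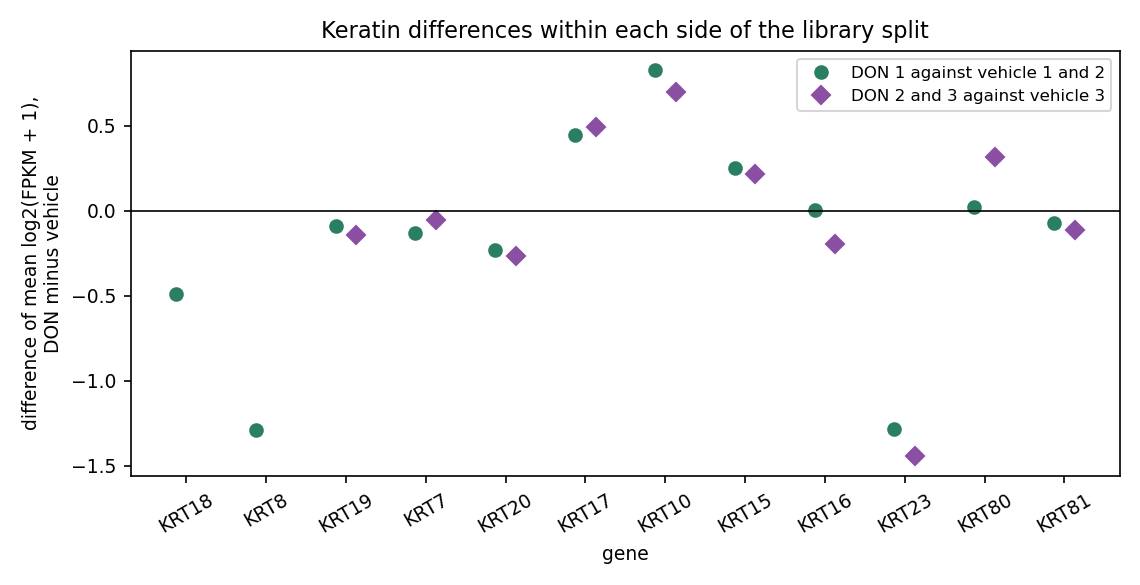
Difference of mean log2(FPKM + 1), DON minus vehicle, for keratin genes above the floor, computed apart on both sides of the library split (circles, DON 1 against vehicle 1 and 2, and diamonds, DON 2 and 3 against vehicle 3). KRT23 lies at -1.29 and -1.45 and KRT10 at 0.83 and 0.70, while KRT8 and KRT18 have a value on the first side only.

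The balance of type II to type I keratins depended on the pair that could not be tested. Over the 8 members with all values the ratio of summed type II to type I FPKM was 0.00822, 0.00849 and 0.00958 in vehicle 1 to 3 and 0.00834, 0.0112 and 0.0113 in DON 1 to 3, and the groups overlapped. With KRT8 and KRT18 in the sums it was 0.562 and 0.511 in vehicle 1 and vehicle 2 and 0.277 in DON 1. KRT8 supplied almost all type II FPKM in each of these 3 libraries. Type I transcripts therefore exceeded type II transcripts in each, and by more in the DON library.

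Genes that work with keratins were taken from lists and are given by their counts, beside 18.3% higher and 20.6% lower over all tested genes. Of 16 tested genes of desmosomes and cytolinkers, which anchor keratin filaments to junctions, 0 were called higher and 4 lower (median log2 fold change -0.14). PERP, a desmosome-associated membrane protein, fell from 453 ± 20.8 to 283 ± 32.1 FPKM, and the plakophilin PKP2 from 36.9 ± 0.967 to 26.7 ± 1.79 FPKM (limma adjusted p = 0.00304 and 0.0057). DSC2, a desmosomal cadherin, fell 1.26-fold, a call lost without vehicle 1 or DON 2 (limma adjusted p = 0.0538 and 0.0827). EPPK1, the keratin-binding epiplakin, went from 4.08 ± 1.02 to 2.17 ± 0.773 FPKM with overlapping groups. Its call (limma adjusted p = 0.0459) did not hold on leaving out any one library except vehicle 3 and DON 1 (0.129 to 0.133), with quantile normalization (0.0725) and without a filter (0.214).

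Of 7 tested genes of hemidesmosomes and their laminin, which tie keratins to the matrix, 3 rose and 2 fell (median -0.09). LAMB3 rose from 57.5 ± 11.6 to 202 ± 37.2 FPKM and LAMA3 from 22.0 ± 0.726 to 54.7 ± 5.46 FPKM (limma adjusted p = 0.000515 and 0.000168). The tetraspanin CD151 fell 1.31-fold, a call lost without DON 2 (limma adjusted p = 0.0511).

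Among 6 tested intermediate filament genes other than keratins 0 rose and 4 fell (median -0.73). These included the nuclear lamins LMNB1, which fell from 54.2 ± 6.01 to 12.1 ± 0.791 FPKM, and LMNB2, which fell 2.62-fold (limma adjusted p = 4.45e-05 and 0.00038). NES, the filament protein of progenitor cells, fell 2.56-fold from 2.30 ± 0.369 FPKM, a call lost without a filter (limma adjusted p = 0.0506), and BFSP1, a lens filament gene, fell 2.14-fold. VIM, named after its values were seen, was not called (limma adjusted p = 0.476) and stood below KRT19 in each library.

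Of 18 tested proteins that bind or modify keratins, 2 rose and 3 fell (median 0.01). The kinase CSNK1A1, which takes part in keratin filament organisation, rose 1.52-fold to 157 ± 8.69 FPKM, and the transglutaminase TGM2 fell 1.38-fold (limma adjusted p = 0.00328 and 0.00825). STUB1, a ubiquitin ligase, fell 1.70-fold, a call lost without DON 2 (limma adjusted p = 0.0525) and without a filter (0.0847). The small heat shock protein HSPB1, a keratin-associated chaperone, fell 2.18-fold (limma adjusted p = 0.000202).

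Of 20 tested transcription factors with known keratin targets, 5 rose and 3 fell (median 0.18). ATF3 rose from 1.92 ± 0.770 to 6.38 ± 0.426 FPKM and NFE2L2, the antioxidant regulator NRF2, from 87.1 ± 13.8 to 153 ± 15.9 FPKM (limma adjusted p = 0.00165 and 0.00404). CEBPB rose 1.98-fold (limma adjusted p = 0.0137), a call lost without a filter (0.0987). FOSL1 rose 1.68-fold (limma adjusted p = 0.0259), a call lost without vehicle 1, vehicle 2, DON 2 or DON 3 (0.0772 to 0.0847) and without a filter (0.145). Whether any of these acts on keratin genes here was not tested.

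Of 13 tested genes of simple and ductal epithelium 2 rose and 8 fell (median -0.65). SOX9, a ductal transcription factor, fell from 30.6 ± 2.21 to 7.32 ± 0.776 FPKM. The tight junction gene CLDN3 fell 2.29-fold and the mucin MUC1 2.23-fold, whereas the splicing regulator ESRP1 rose 2.10-fold (limma adjusted p from 5.81e-05 to 0.00453 for these 4 genes). Of 6 tested genes of basal and squamous epithelium 0 rose and 0 fell (median -0.06), and the list's summed level was 39.4 to 52.4 FPKM in vehicle and 39.6 to 50.4 FPKM in DON. S100A2, the most abundant of them, stood at 21.1 ± 5.55 and 17.5 ± 4.01 FPKM (limma adjusted p = 0.444). Of 16 cornified envelope genes 7 stood at the floor in all libraries and 2 were tested. The protease KLK7 of that list fell 4.24-fold from 2.24 ± 0.703 FPKM (limma adjusted p = 0.00537). KLK7 passed the filter only through its vehicle libraries, so leaving out any of them removed it from the test. Without a filter its limma adjusted p was 0.0405. CNFN, the other tested gene of that list, had a log2 fold change of 1.02 and was not called. Beside the rise of KRT10 and the higher KRT17 values, no tested gene of the basal and squamous list was called.

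Among lists of other cell types, acinar genes summed to at most 0.423 FPKM, endothelial genes to at most 0.785 FPKM and endocrine genes to at most 1.16 FPKM in any library. The highest single genes were CELA3A (at most 0.230 FPKM), CLDN5 (0.634 FPKM) and SST (1.11 FPKM, in vehicle 1). The fibroblast list summed to 142 to 172 FPKM in vehicle and 88.8 to 124 FPKM in DON, nearly all from LUM. The leukocyte list summed to 233 to 357 and 102 to 152 FPKM, mostly from LYZ, the gene of lysozyme, a protein that secretory epithelia also make. LYZ fell from 250 ± 67.8 to 98.5 ± 19.9 FPKM (limma adjusted p = 0.00395). LUM fell 1.39-fold (limma adjusted p = 0.0387), a call lost without any one of the 6 libraries, with median-of-ratios scaling (0.0533) and without a filter (0.167). The defining genes COL1A1 and PTPRC of the fibroblast and leukocyte lists were at or near the floor in both groups.

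**Figure D4:**
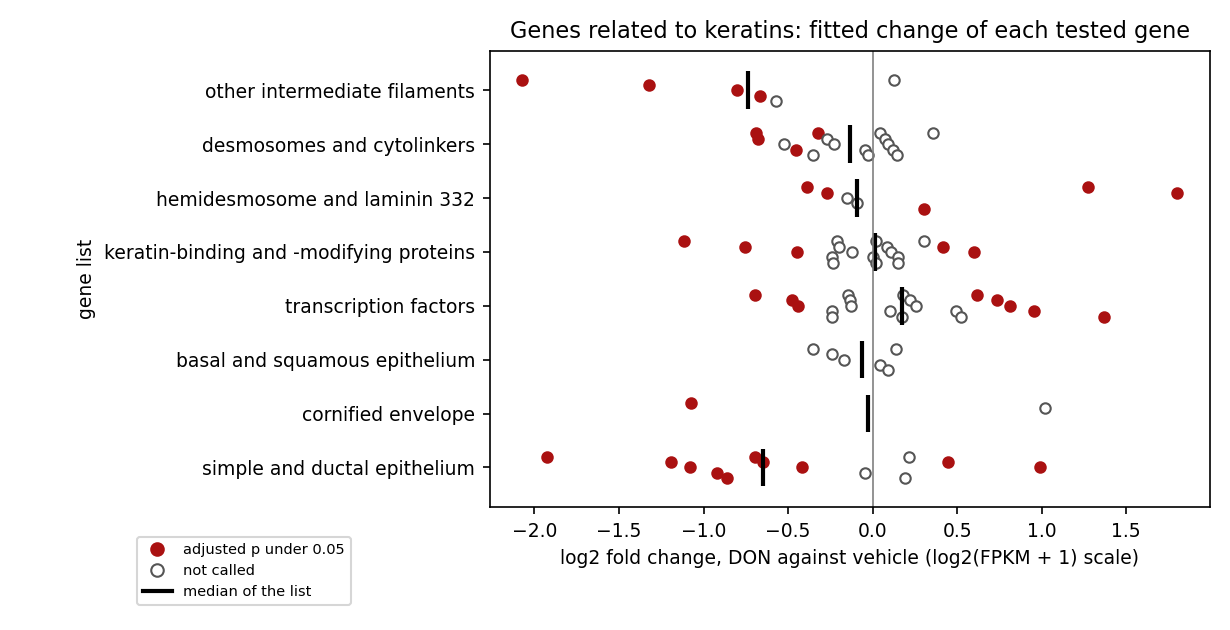
Fitted log2 fold change of each tested gene in 8 lists related to keratins (circles, filled red where limma called the gene) with the median of each list (black bar). The simple and ductal list has its median at -0.65, and the basal and squamous list has no called gene and a median of -0.06.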

How the data were processed

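The authors deposited 1 table of FPKM values per gene symbol, made from single 75 bp reads of poly(A) RNA in strand-directed libraries, per the labels' protocols. STAR and hg19 are named in the submitters' processing notes. No source used here gives the program that computed FPKM, the annotation or the use of strand. Columns that say control were taken as vehicle by their number. Failure marks (72 cells) were treated as missing values. Tested genes reached 1 FPKM in 3 or more of the 6 libraries and had at least 2 values per group. They were tested on log2(FPKM + 1), a scale that understates changes of low genes. The test was limma 3.58.1 in R 4.3.3 (moderated variances, intensity trend, two-sided, no replicate block), with Benjamini-Hochberg adjustment over all 11495 tested genes at 0.05. Folds beside FPKM are ratios of means. The script was tested on simulated data. Python 3.11.15, pandas 2.3.3, numpy 2.4.6, scipy 1.17.1 and matplotlib 3.10.9 were used.

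Named genes are the 10 members, other keratin genes past the filter, and up to 4 called genes per list by size of change. Where no gene of a list was called, the most abundant tested gene is named, and for other cell types the highest gene. A called gene of these lists and some sequences are not reported here. Members and lists were chosen with earlier results of these data known. Sequences and gene overlaps come from GENCODE 29 (GRCh38), a build other than the authors'. Shared stretches are exact 75-base matches on either strand. Alternatives were 2 other scalings, a filter at 5 FPKM or none, 0.1 as pseudocount, no trend, removal of genes with failure marks, a replicate block, a term for the library split, and leaving out each library.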

Additional observations from a re-analysis of the deposited data

How the results depend on the processing

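The count of 4468 called genes was 2946 without a filter and ranged from 2689 (without DON 2) to 4644 (without DON 1) when single libraries were left out. It was 5419 with a replicate block and 6044 with the library split term. The split was drawn from these same values and holds the groups unevenly. Its term therefore takes up spread by construction, and the higher count is no independent check. The replicate block changed no call of a tested keratin or of another gene named by the stated rule. EPCAM, CDH1, VIM and CNFN, named outside that rule, were not followed through the alternatives. Same-numbered libraries deviated together in 2 of 3 pairs only (correlations of 0.254, -0.184 and 0.502 for numbers 1 to 3), so the number was not taken as a pairing. The 1 called member, KRT23, was called under all 16 alternatives. The fit that accepts 1 value per group, chosen after seeing the data, counted 2 members, KRT23 and KRT8, but KRT8 has 1 DON value, so that call has no replicate check.

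The stratified or basal share of 0.0148% in vehicle and 0.0400% in DON became 0.00464% and 0.0154% with KRT8 and KRT18 kept. It was 1.26% and 2.23% with all stratified keratin genes of the table counted. That last base holds simple and stratified genes only, without KRT8, KRT18, KRT23, KRT80 and KRT81. The first base does hold KRT23, KRT80 and KRT81, so these shares have unlike bases. The type II to type I ratio of 0.00877 and 0.0103 became 0.537 and 0.277 with KRT8 and KRT18 kept. The values with KRT8 and KRT18 rest on 2 vehicle libraries and 1 DON library, so genes and libraries changed together, and the cause was not tested. No gene named by the stated rule reversed its direction. The call was lost in 9 of 345 fits of tested named genes under another setting, and in 24 of 207 fits that left out 1 library. Both totals include fits of KRT7, KRT19, KRT80, KRT15, KRT16 and S100A2, which had no call to lose. Lost calls are therefore a larger part of the fits of called genes. Fits in which a gene fell out of testing, such as KLK7 without a vehicle library, are not in the totals. Depth is unknown, and KRT17, KRT20 and KRT81 below 1 FPKM may rest on few reads.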
